A study of Mus musculus with 8 samples.

Results

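The data described here are 4 of the 8 arrays of a study of SOX7 in mouse haematopoietic precursors, chosen by their titles: 2 samples cultured for 24 h with doxycycline and 2 cultured for 12 h with doxycycline. The parent line was iSOX7, mouse embryonic stem cells derived from Ainv18, and doxycycline turns on their SOX7 transgene. FLK1+ cells from embryoid bodies were grown in liquid blast medium containing VEGF and IL6, and cells sorted as CD41+ and CD34- were then cultured further, in 4 groups of 2 samples: 24 h with doxycycline, 12 h with doxycycline, 24 h without it and 12 h without it. Total RNA was labelled as biotinylated sense-strand DNA and hybridised to Affymetrix arrays, and the deposited values are log2 RMA signals of 16348 probe sets. The labels give no dose of doxycycline, name a single cell line, and do not say whether the 2 samples of a group came from separate cultures, so p-values measure only how far these samples scatter, and that scatter may be technical. In the cells with doxycycline, time in culture and time with SOX7 on ran together and cannot be told apart from these 4 arrays alone. The 4 arrays without doxycycline, which share no array with them, therefore serve for comparison.

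Many of the genes described below are known targets of the hypoxia-inducible factors, HIF-1α and HIF-2α. When oxygen is plentiful, prolyl hydroxylases of the EGLN family mark the HIF α subunits for destruction through the VHL protein. When oxygen is scarce, the subunits persist, pair with ARNT and bind short DNA elements with the core ACGTG or GCGTG, and genes for glucose uptake, glycolysis, glycogen handling, mitophagy and vessel growth are switched on. SOX7 belongs to the SoxF family of transcription factors, which act in endothelial cells and in early blood precursors, where SOX7 is normally lost as blood cells mature.

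The promoter windows of 6 genes that passed the test are printed here, chosen after their values were seen, because they show how the HIF core letters lie around the starts of genes with different roles. Each runs from 250 bases before the annotated gene start to 50 bases after it, from RefSeq on GRCm38.p6, read 5′ to 3′ on the gene's strand, with ACGTG or GCGTG and their reverse complements CACGT and CACGC in capitals (overlapping matches run together). Adm, on the plus strand at chr7:110627407-110627706, encodes the vasodilator peptide adrenomedullin. Bnip3, on the minus strand at chr7:138909457-138909756, encodes a mitophagy receptor. Ero1a, on the minus strand at chr14:45318523-45318822, encodes an oxidase of the endoplasmic reticulum. Egln1, on the minus strand at chr8:124949205-124949504, encodes the oxygen-sensing prolyl hydroxylase PHD2. Pygl, on the minus strand at chr12:70227634-70227933, encodes the liver form of glycogen phosphorylase. Edn1, on the plus strand at chr13:42301226-42301525, encodes the precursor of the vasoconstrictor endothelin-1, and was the gene with the deepest fall among those past the test.
Adm: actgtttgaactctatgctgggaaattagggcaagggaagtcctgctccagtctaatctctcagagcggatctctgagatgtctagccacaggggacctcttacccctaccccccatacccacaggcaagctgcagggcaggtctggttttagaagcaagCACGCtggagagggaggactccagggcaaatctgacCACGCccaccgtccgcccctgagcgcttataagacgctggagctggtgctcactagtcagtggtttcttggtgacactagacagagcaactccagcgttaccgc
Bnip3: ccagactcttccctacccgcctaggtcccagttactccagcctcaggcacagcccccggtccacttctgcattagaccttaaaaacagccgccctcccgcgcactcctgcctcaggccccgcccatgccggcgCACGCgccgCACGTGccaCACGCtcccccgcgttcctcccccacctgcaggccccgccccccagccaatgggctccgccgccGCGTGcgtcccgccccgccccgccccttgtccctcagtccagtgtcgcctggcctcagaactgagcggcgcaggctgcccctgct
Ero1a: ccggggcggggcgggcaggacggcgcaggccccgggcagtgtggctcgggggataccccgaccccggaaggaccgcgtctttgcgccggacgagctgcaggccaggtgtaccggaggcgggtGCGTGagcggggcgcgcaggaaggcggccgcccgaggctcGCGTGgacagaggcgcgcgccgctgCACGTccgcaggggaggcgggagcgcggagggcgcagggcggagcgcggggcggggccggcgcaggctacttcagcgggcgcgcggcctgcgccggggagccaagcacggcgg
Egln1: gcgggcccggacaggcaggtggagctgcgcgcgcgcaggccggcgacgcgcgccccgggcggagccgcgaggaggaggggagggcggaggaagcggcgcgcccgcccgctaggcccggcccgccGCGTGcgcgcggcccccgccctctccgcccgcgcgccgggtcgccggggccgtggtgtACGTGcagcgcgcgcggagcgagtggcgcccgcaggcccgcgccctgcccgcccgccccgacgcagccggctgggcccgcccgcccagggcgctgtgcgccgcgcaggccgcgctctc
Pygl: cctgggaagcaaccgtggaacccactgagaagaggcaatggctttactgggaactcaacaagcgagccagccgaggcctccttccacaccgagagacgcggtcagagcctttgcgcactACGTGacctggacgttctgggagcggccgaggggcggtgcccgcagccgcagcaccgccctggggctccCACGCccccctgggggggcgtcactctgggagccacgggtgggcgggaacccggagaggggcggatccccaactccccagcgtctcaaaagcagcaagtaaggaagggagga
Edn1: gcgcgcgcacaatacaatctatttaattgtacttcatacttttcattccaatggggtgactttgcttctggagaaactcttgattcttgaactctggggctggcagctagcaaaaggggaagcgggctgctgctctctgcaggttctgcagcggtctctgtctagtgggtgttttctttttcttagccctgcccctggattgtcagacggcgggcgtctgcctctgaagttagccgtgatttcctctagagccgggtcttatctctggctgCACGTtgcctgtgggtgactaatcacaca
The Bnip3 window held 5 such cores, Ero1a held 3, Adm, Egln1 and Pygl held 2 each, and Edn1 held 1, which lay 21 bases after its start. A core lay in 76.2% of the windows of the genes that rose (16 of 21 with a window), against 54.8% of the windows of all genes measured by a probe set with 1 symbol (6442 of 11765). The windows of Clec5a, Emilin2, Gbe1, Gja5 and Vldlr, which also rose, held no core and are not printed, so the printed windows are not typical. For each gene, in all these counts, only the first window listed was searched. Emilin2 and Vldlr had 2 windows each, and Sgk1, which fell, had 6. The counts therefore do not cover every annotated start. Median GC content was 62.3% in the windows of the genes that rose, against 58.3% in those of all measured genes, so the 2 sets of windows also differ in base composition. For the letters ACAAT, the core of SOX sites, the shares were 14.3% (3 of 21) and 25.2%, counting both strands. Of the 4 genes that fell, 1 window held a HIF core (25%) and 2 held ACAAT (50%), and the Edn1 window held ACAAT or its reverse complement 4 times. These matches describe letters in windows and were not tested.

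At 24 h with doxycycline the precursors had more RNA from some genes of oxygen sensing, glycolysis, glycogen handling, heme breakdown and metal binding than at 12 h with doxycycline, and less from the genes for endothelin-1, the kinase Sgk1, the GTPase Rhob and glutamine synthetase. By limma, with Benjamini-Hochberg adjustment over all probe sets, 30 of 16348 probe sets passed an adjusted p of 0.05 (0.184%). Of these, 26 rose (0.159%) and 4 fell (0.0245%). Each of the 30 changed at least 2-fold, and in none did the samples of the 2 times overlap. With 2 samples at each time, genes that did not pass, such as Sox7 and Kit, were separated in this way too. The separation therefore adds no support to the calls. At an unadjusted p of 0.05, 1116 probe sets passed (6.83%), 633 higher (3.87%) and 483 lower (2.95%), and the median change over all probe sets was -0.01 on the log2 scale. These shares over all probe sets are the background for the counts in gene lists given below, as is the 47% with a difference above 0. The calls rest on few arrays. Without the first sample at 24 h with doxycycline, without the second at 12 h with doxycycline, or with these 4 arrays alone in the fit, 0 probe sets passed. The count was 7 without the second sample at 24 h with doxycycline, 17 without the first at 12 h with doxycycline, and 14 without the first, or without the second, sample at 24 h without doxycycline.

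**Figure D1:**
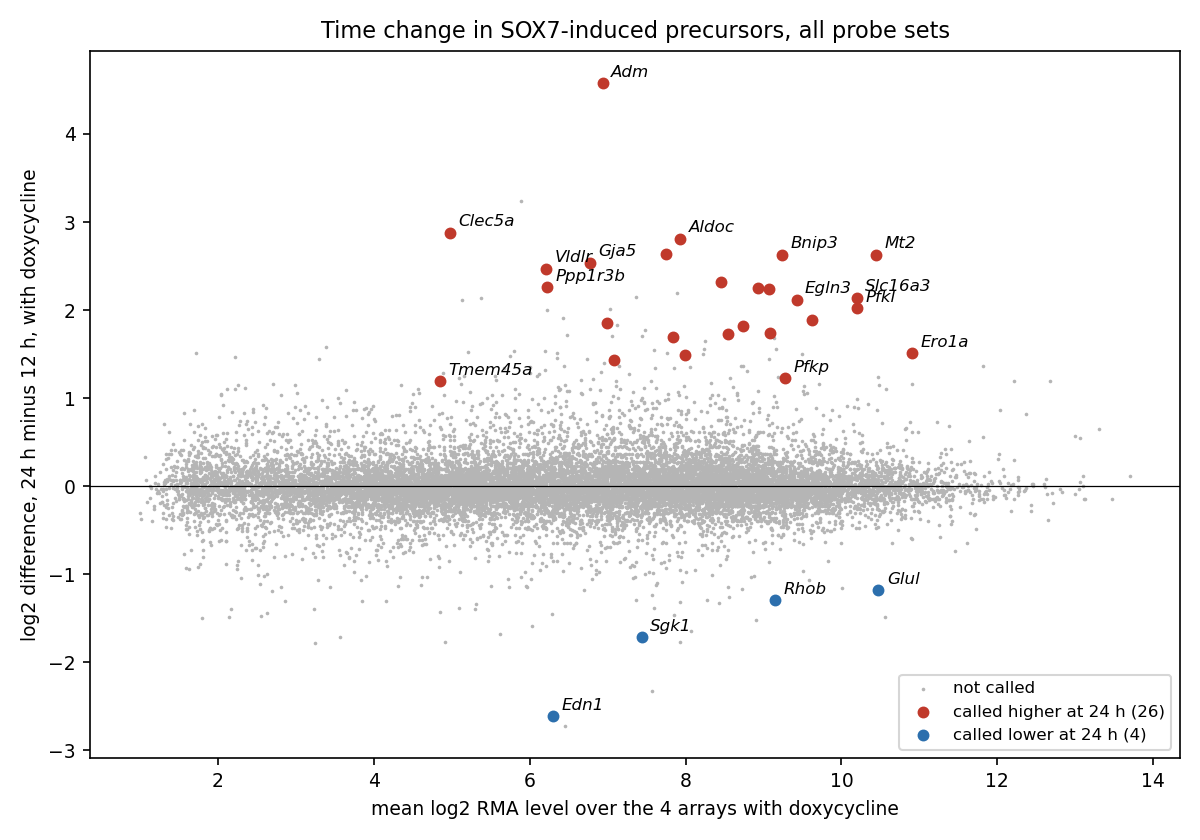
Difference of each probe set between 24 h and 12 h with doxycycline (vertical axis, log2, 24 h minus 12 h) against its mean log2 level over the 4 arrays (horizontal axis). Grey points are probe sets that did not pass, red points the 26 called higher and blue points the 4 called lower, with some genes named. The called rises reach 4.58 for Adm and the called falls -2.61 for Edn1, and some grey points with large changes did not pass.

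Sox7 itself was at log2 10.65 and 10.57 at 24 h with doxycycline and at 10.96 and 10.82 at 12 h with doxycycline, against 6.96 and 6.84 at 24 h without it and 7.17 and 6.82 at 12 h without it. All 4 samples with doxycycline lay above all 4 without, and the difference with time in doxycycline, -0.28 ± 0.16 (SE), did not pass (limma, adjusted p = 0.869). Differences are given throughout as 24 h minus 12 h on the log2 scale, with the SE of the fit. Of the other SoxF members, Sox17 had a difference of 0.34 ± 0.18 and Sox18 of -0.36 ± 0.33, and neither passed. Itga2b, which encodes the sorted marker CD41, was at 10.89 and 10.32 at 24 h with doxycycline and at 10.14 and 9.27 at 12 h with doxycycline. Cd34, whose protein the sort selected against, was at 10.25 and 9.98 at 24 h with doxycycline and at 10.15 and 9.18 at 12 h with doxycycline, which put it at the percentile 93.0 of all probe sets by its mean in these 4 arrays. Some endothelial genes stood high at both times too. Cdh5, the VE-cadherin of endothelial junctions, was at 11.52 and 11.37 at 24 h with doxycycline. At 12 h with doxycycline Cdh5 was at 11.46 and 11.22, and its percentile was 99.1. Others lay nearer the middle of all probe sets, such as Robo4 at the percentile 45.6, Cldn5 at 53.7 and Emcn at 59. Of 18 endothelial markers, 0 passed the test with time (2 higher and 0 lower at an unadjusted p of 0.05). The mean level of mesenchyme and smooth muscle genes was higher in sample 2 than in sample 1 of each group. Over 15 genes it was log2 6.21 and 7.18 in samples 1 and 2 at 24 h with doxycycline, 6.27 and 7.13 at 12 h with doxycycline, 6.37 and 7.22 at 24 h without it, and 6.27 and 7.20 at 12 h without it, while single members had differences with time in both directions, such as -0.86 ± 0.28 for Cald1 and 0.96 ± 0.95 for Postn, and 0 of 15 passed (0 higher and 1 lower at an unadjusted p of 0.05). Megakaryocyte and platelet genes were split by number the other way, with means over 13 genes of 8.66 and 7.75 in samples 1 and 2 at 24 h with doxycycline, 7.96 and 7.20 at 12 h with doxycycline, 9.41 and 7.92 at 24 h without it and 8.5 and 7.67 at 12 h without it. The part of these genes in the results was not tested. Lymphoid, mast cell, cardiac, endoderm and pluripotency genes gave 0 calls in 9, 12, 7, 9 and 12 measured markers, and of these only pluripotency genes held any at an unadjusted p of 0.05, 1 higher and 3 lower.

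The oxygen-sensing hydroxylases Egln3 and Egln1 were among the rises. Egln3, the prolyl hydroxylase PHD3, was at 10.59 and 10.38 at 24 h with doxycycline and at 8.37 and 8.37 at 12 h with doxycycline, a rise of 2.12 ± 0.16 (limma, adjusted p = 0.00736). Egln1 was at 10.00 and 9.89 at 24 h and at 8.18 and 8.23 at 12 h, a rise of 1.74 ± 0.20 (limma, adjusted p = 0.0259). The samples of the 2 times were more than 1 log2 unit apart in both genes. Their relative Egln2 had a difference of -0.11 ± 0.13 and did not pass. The genes of the HIF subunits were not among the calls: the difference was -0.32 ± 0.15 for Hif1a, 0.51 ± 0.14 for Epas1 (HIF-2α), 0.72 ± 0.20 for Hif3a and 0.13 ± 0.18 for Arnt. Neither Vhl (0.36 ± 0.20) nor Hif1an, an asparagine hydroxylase that restrains HIF (-0.12 ± 0.13), passed. Of 10 such regulators, a list made after the data were seen, 2 were called, both EGLN genes. The share called higher over all probe sets was 0.159%.

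Bnip3, the mitophagy receptor, was at 10.77 and 10.34 at 24 h with doxycycline and at 8.26 and 7.59 at 12 h with doxycycline, a rise of 2.63 ± 0.28 (limma, adjusted p = 0.023). Ero1a, which makes disulphide bonds in the endoplasmic reticulum, was at 11.65 and 11.66 at 24 h and at 10.15 and 10.15 at 12 h (1.51 ± 0.13, limma, adjusted p = 0.0116). Bhlhe40, a transcriptional repressor of the circadian clock that also answers to low oxygen, was at 9.35 and 8.80 at 24 h and at 6.59 and 6.28 at 12 h (2.64 ± 0.24, limma, adjusted p = 0.0167). Ddit4, which encodes the mTORC1 inhibitor REDD1, was at 10.35 and 10.03 at 24 h and at 8.08 and 7.82 at 12 h (2.24 ± 0.17, limma, adjusted p = 0.00736). In each of the 4 genes, as in every called rise, both samples at 24 h lay above both at 12 h.

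Of the genes for glucose uptake, glycolysis and other known HIF targets, 8 rose. Aldoc, an aldolase, was at 9.54 and 9.12 at 24 h with doxycycline and at 6.52 and 6.53 at 12 h with doxycycline, a rise of 2.81 ± 0.26 (limma, adjusted p = 0.0169). Slc16a3, the lactate exporter MCT4, was at 11.37 and 11.17 at 24 h and at 9.51 and 8.76 at 12 h (2.14 ± 0.25, limma, adjusted p = 0.0295). Both phosphofructokinase genes measured from this list rose, Pfkl by 2.02 ± 0.27 (adjusted p = 0.0493) and Pfkp by 1.23 ± 0.15 (adjusted p = 0.0426, both limma). Other members had differences above 0 that did not pass. The difference was 2.19 ± 0.34 for P4ha2, a collagen prolyl hydroxylase, 1.20 ± 0.22 for the glucose transporter Slc2a1 and 1.20 ± 0.18 for the triose phosphate isomerase Tpi1. It was 0.89 ± 0.14 and 1.05 ± 0.17 for the hexokinases Hk1 and Hk2, and 1.44 ± 0.27 for Pdk1, which holds pyruvate back from the mitochondrion. These belong to a hypoxia and glycolysis list of 27 genes, of which 20 were measured, 8 rose and 0 fell, against 0.159% of all probe sets that rose. The list's median difference was 1.33 against -0.01 over all probe sets, all 20 differences were above 0, and 19 were higher at an unadjusted p of 0.05. The smallest belonged to Car9, a carbonic anhydrase often used to mark hypoxia, at 4.56 and 4.46 at 24 h and 4.19 and 4.23 at 12 h, a low level at both times. The mean log2 level over the 20 genes was 10.28 and 10.13 at 24 h with doxycycline and 8.62 and 8.53 at 12 h with doxycycline, against 9.91 and 9.70 at 24 h without it and 8.45 and 8.53 at 12 h without it. The list was known from earlier results of these data to rise with time, so its count is not independent evidence of a direction. Its median was 1.32 to 1.47 when 1 of the 4 samples with doxycycline was left out. Its count of calls was 0 without the first sample at 24 h or the second at 12 h with doxycycline, 1 without the second at 24 h and 5 without the first at 12 h with doxycycline, and 3 without the first, or without the second, sample at 24 h without doxycycline.

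**Figure D2:**
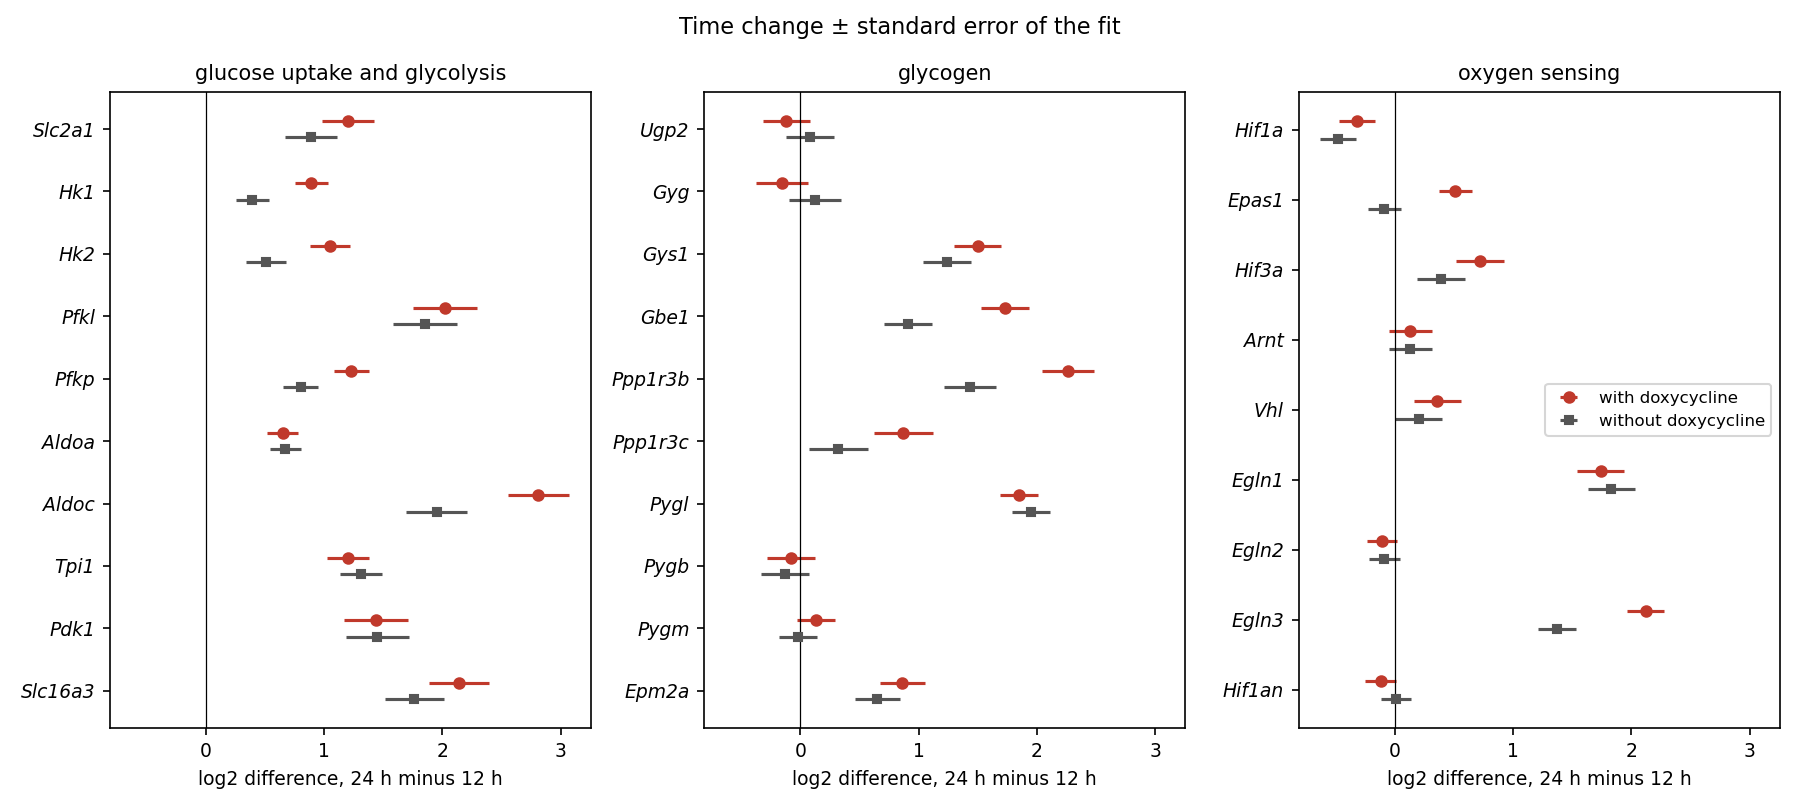
Log2 difference, 24 h minus 12 h (horizontal axis), for genes of glycolysis, glycogen metabolism and oxygen sensing, with doxycycline (red circles) and without it (grey squares); bars are SE of the limma fit. With doxycycline the differences run from 0.65 for Aldoa to 2.81 for Aldoc among the glycolytic genes shown, while Hif1a, Egln2 and Hif1an lie below 0.

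Genes that build and break down glycogen, the cell's stored glucose, were among the rises, and were listed only after the data were seen. Ppp1r3b, which brings protein phosphatase 1 to glycogen, was at 7.63 and 7.08 at 24 h with doxycycline and at 5.02 and 5.17 at 12 h with doxycycline, a rise of 2.26 ± 0.22 (limma, adjusted p = 0.019). Pygl was at 8.02 and 7.81 at 24 h and at 5.98 and 6.16 at 12 h (1.85 ± 0.16, limma, adjusted p = 0.0116). Gbe1, the branching enzyme, was at 9.54 and 9.29 at 24 h and at 7.55 and 7.83 at 12 h (1.73 ± 0.20, limma, adjusted p = 0.0274). These 3 genes were the calls among 17 measured of 22 listed, against 0.159% of all probe sets that rose. The list's median difference was 0.28. The glycogen synthase Gys1 just missed the threshold, at 10.37 and 10.14 at 24 h and 8.90 and 8.61 at 12 h (1.5 ± 0.20, limma, adjusted p = 0.0537). The muscle and brain forms of the phosphorylase did not pass: Pygm had a difference of 0.13 ± 0.16 and Pygb of -0.08 ± 0.20. A probe set that carries the names Pgm1 and Pgm2, phosphoglucomutases that join glycogen to glycolysis, was at 10.11 and 10.02 at 24 h and 7.83 and 7.80 at 12 h (2.25 ± 0.14, limma, adjusted p = 0.00482), and which of these genes it reports cannot be told apart here.

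Signals for vessels moved in opposite directions. Adm had the largest rise of all probe sets, at 9.40 and 9.05 at 24 h with doxycycline and at 3.96 and 5.34 at 12 h with doxycycline, a change of 4.58 ± 0.50 (limma, adjusted p = 0.023). The 2 samples at 12 h were further apart than those at 24 h, and both lay below them. They lay around the lower quartile of their arrays (4.58 and 4.63), so the size of the rise is uncertain: the Adm log2 change was 3.89 without the first sample at 12 h and 5.27 without the second. Without doxycycline Adm was at 7.91 and 7.01 at 24 h and at 4.51 and 5.34 at 12 h. Edn1 fell to 5.00 and 4.99 at 24 h with doxycycline, against 7.44 and 7.78 at 12 h with doxycycline, a change of -2.61 ± 0.18, or 6.13-fold lower (limma, adjusted p = 0.00482). Without doxycycline Edn1 was at 4.96 and 4.94 at 24 h and at 6.67 and 6.31 at 12 h, so all 4 samples at 24 h had a like level. That level lay not far above the lower quartiles of their arrays (4.52 to 4.69), so the size of the Edn1 fall is uncertain in both conditions. The receptor genes for adrenomedullin were not called: Calcrl, the receptor, had a difference of 0.85 ± 0.50, and Ramp2, its partner, of -0.96 ± 0.39. The endothelin receptor Ednrb had a difference of 0.82 ± 0.22, and the further endothelin genes Edn2 and Edn3 of 0.06 ± 0.18 and 0.13 ± 0.18, without passing. Edn1 was the 1 call among 6 endothelin genes measured, against 0.0245% of all probe sets called lower. That list was made after the data were seen, so its count is no independent support. Among the other vessel growth factors the difference was 0.58 ± 0.18 for Vegfa, 1.17 ± 0.34 for Vegfc and 1.03 ± 0.22 for Apln, which encodes the ligand apelin, and none passed. The list of VEGF, angiopoietin and PDGF genes gave 1 call in 19, Adm, with a median of 0.30 (6 higher and 1 lower at an unadjusted p of 0.05).

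Gja5, Fgfr3 and Efna1, genes of cell contact and signalling, rose with doxycycline and had differences near 0 without it. Gja5, the gap junction protein connexin 40 of arterial endothelium, was at 8.18 and 7.90 at 24 h with doxycycline and at 5.31 and 5.70 at 12 h with doxycycline (2.54 ± 0.31, limma, adjusted p = 0.0368), against a difference of 0.06 without doxycycline. Fgfr3, a receptor for fibroblast growth factors, was at 8.86 and 8.62 at 24 h and at 7.26 and 7.25 at 12 h (1.49 ± 0.15, limma, adjusted p = 0.019), against a difference of -0.25 without. Efna1, a ligand of Eph receptors, was at 7.79 and 7.81 at 24 h and at 6.51 and 6.23 at 12 h (1.43 ± 0.18, limma, adjusted p = 0.044), against a difference of 0.19 without. The change with doxycycline minus that without was 2.48 for Gja5, 1.74 for Fgfr3 and 1.25 for Efna1, and none passed when that contrast was tested over all probe sets by limma (adjusted p = 0.919 for Fgfr3, the smallest of all). Fgfr3 was the 1 call among 4 FGF receptor genes and Efna1 among 7 ephrin ligand genes, lists also made after the data were seen. Over all probe sets 0.159% were called higher. Dll4, the arterial Notch ligand, was at 8.38 and 8.34 at 24 h and 6.66 and 6.52 at 12 h with doxycycline (1.77 ± 0.25, limma, adjusted p = 0.056), and Nrarp, a Notch target, had a difference of 0.96 ± 0.21, neither past the test. Notch1, a receptor, had a difference of 0.28 ± 0.18, Efnb2, an arterial ephrin, of 0.37 ± 0.20, and Hey1, a Notch target, of -0.45 ± 0.23. In the arterial and Notch list 1 of 19 was called, Gja5, and the median difference was 0.28 (4 higher and 0 lower at an unadjusted p of 0.05).

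Some stress and metal genes rose, and most members of their lists did not pass. Mt2, a metallothionein that binds zinc and copper, was at 11.58 and 11.93 at 24 h with doxycycline and at 9.40 and 8.86 at 12 h with doxycycline (2.63 ± 0.28, limma, adjusted p = 0.023). Mt1, its neighbour in function, had a difference of 1.36 without passing (limma, adjusted p = 0.107), and was called without doxycycline, as Mt2 was, with a change of 2.38 (limma, adjusted p = 0.0223). Hmox1, which degrades heme, was at 10.55 and 10.58 at 24 h and at 8.62 and 8.73 at 12 h (1.89 ± 0.20, limma, adjusted p = 0.0211). It was the only call among 12 targets of the antioxidant factor NRF2, whose median difference was -0.07, and Nqo1, a quinone reductase and another of them, had a difference of -0.83. Vldlr, a lipoprotein receptor, was at 7.56 and 7.34 at 24 h and at 4.97 and 4.99 at 12 h (2.47 ± 0.15, limma, adjusted p = 0.00482). Vldlr and Ddit4 were the calls among 25 genes of the integrated stress response, against 0.159% of all probe sets called higher. That list had a median of 0.24. Of 13 genes of the unfolded protein response 0 passed, even at an unadjusted p of 0.05, with a median of 0.00.

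**Figure D3:**
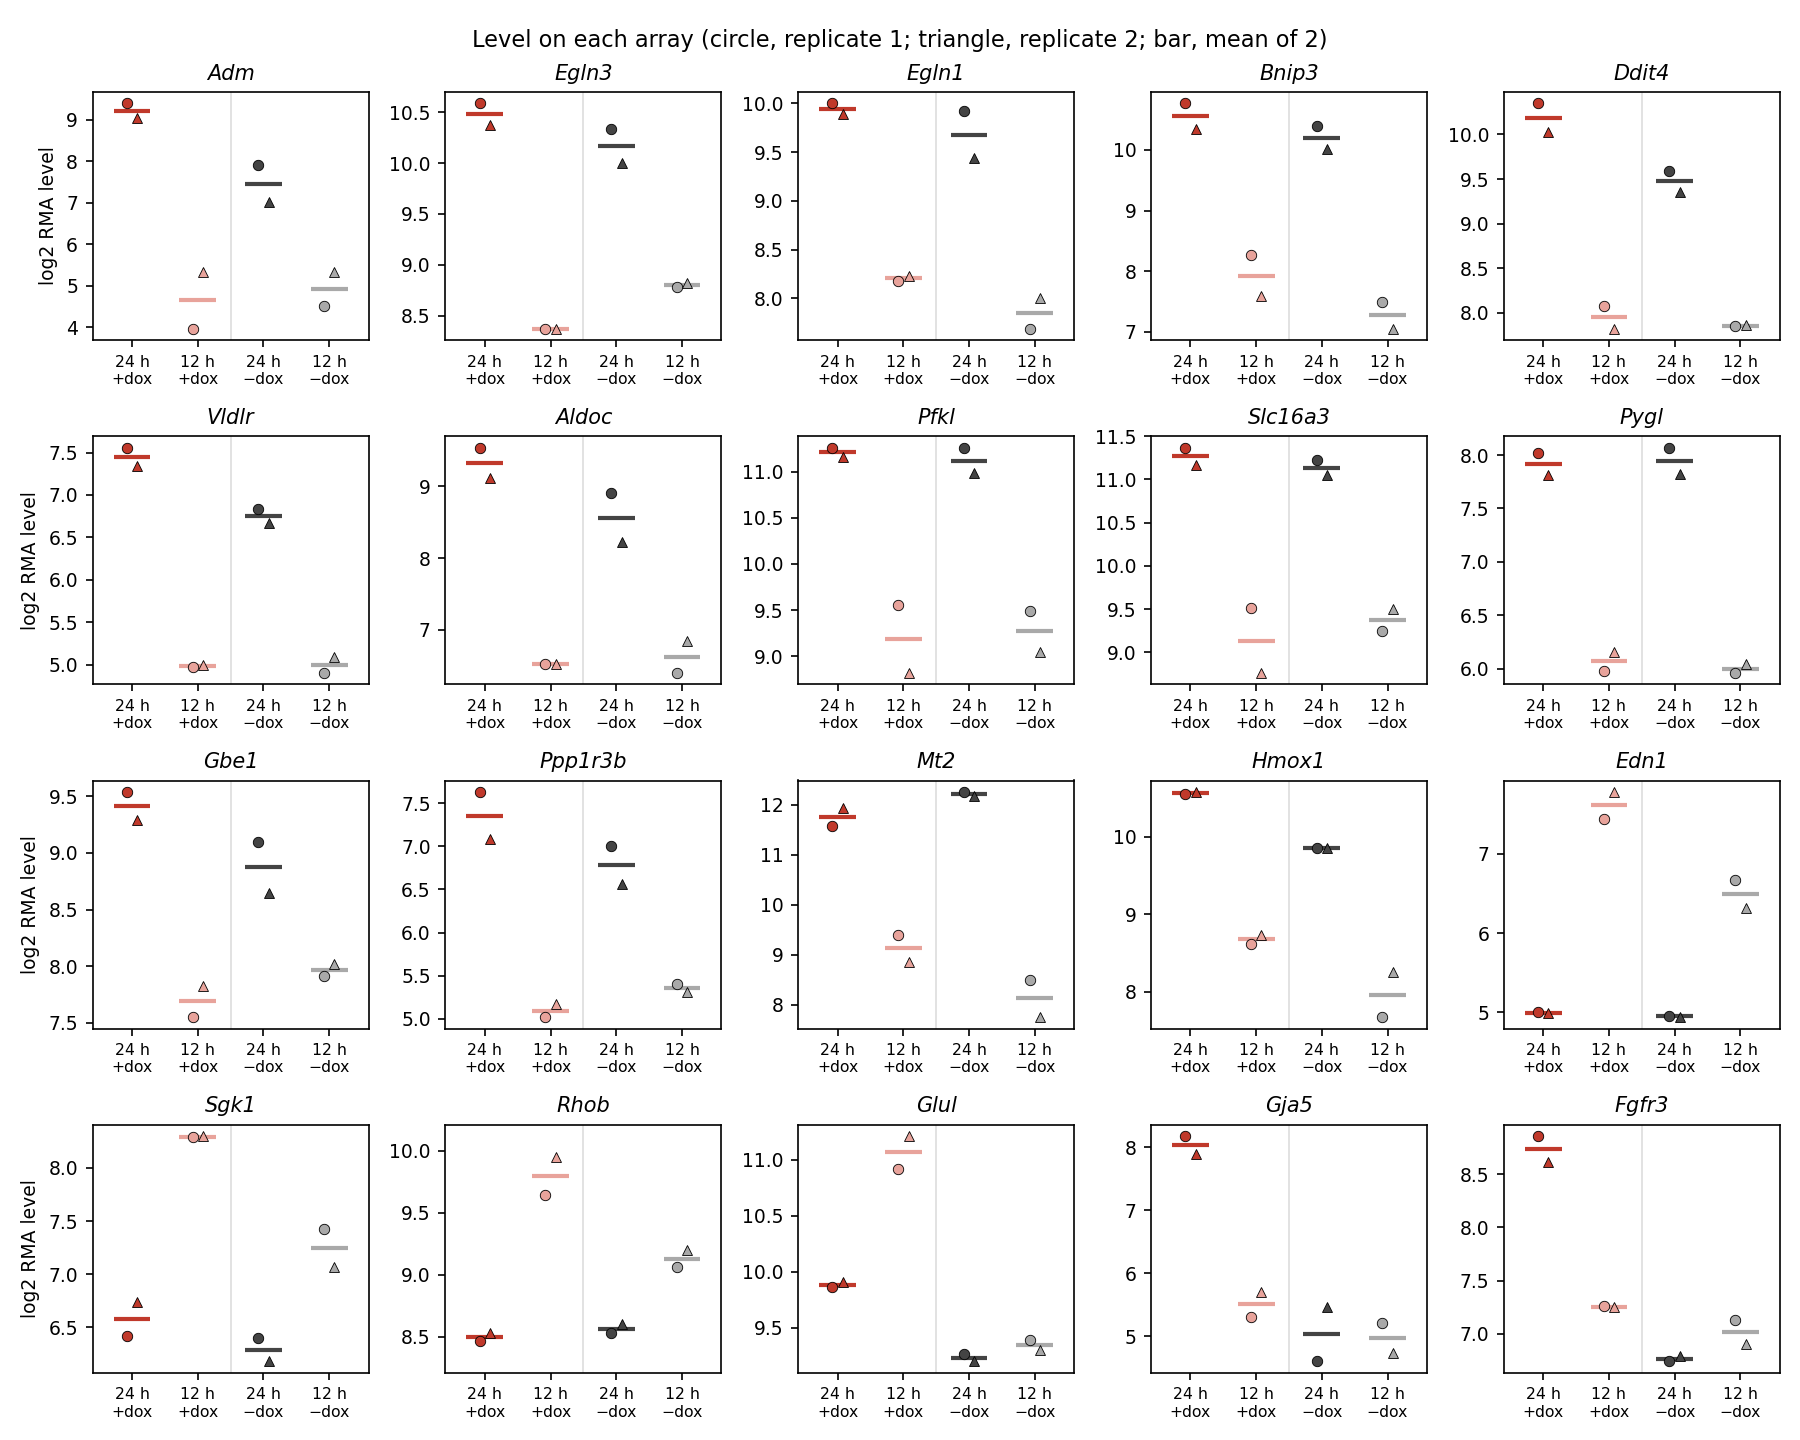
Log2 RMA level (vertical axis) in each of the 8 arrays for 20 of the called genes, by group (horizontal axis); circles are replicate 1, triangles replicate 2 and bars the mean of 2. Adm, Bnip3, Aldoc and Egln3 lie higher at 24 h than at 12 h with doxycycline, Edn1 lies lower, and Gja5 separates the times only with doxycycline.

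The remaining rises had mixed roles. Clec5a, a lectin receptor of myeloid cells, was at 6.48 and 6.36 at 24 h with doxycycline and at 4.0 and 3.08 at 12 h with doxycycline (2.88 ± 0.35, limma, adjusted p = 0.0356). Both values at 12 h lay below the lower quartiles of their arrays (4.58 and 4.63), so the size of the rise is uncertain. Clec5a was also called without doxycycline, with a change of 3.41 (limma, adjusted p = 0.0223). It was then at 8.97 and 8.12 at 24 h and at 5.12 and 5.15 at 12 h. Plekha2, an adaptor that binds membrane phosphoinositides, was at 9.74 and 9.49 at 24 h and at 7.26 and 7.34 at 12 h (2.32 ± 0.25, limma, adjusted p = 0.023). Ier3, an early response gene, rose by 1.82 ± 0.18, Emilin2, a protein of the extracellular matrix, by 1.69 ± 0.17, and Tmem45a by 1.19 ± 0.15. The adjusted p-values of these 3 were 0.019, 0.019 and 0.044 (limma).

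The falls that passed were few. Sgk1, a kinase that regulates ion transport and survival, was at 6.42 and 6.74 at 24 h with doxycycline and at 8.29 and 8.30 at 12 h with doxycycline (-1.71 ± 0.18, limma, adjusted p = 0.023). Rhob, a GTPase of endosomes, was at 8.47 and 8.53 at 24 h and at 9.64 and 9.95 at 12 h (-1.29 ± 0.15, limma, adjusted p = 0.0309). Glul, which makes glutamine, was at 9.86 and 9.91 at 24 h and at 10.92 and 11.21 at 12 h (-1.18 ± 0.15, limma, adjusted p = 0.04). Rpp25, a subunit of RNase P, Cbr3, a carbonyl reductase, and Ehhadh, a peroxisomal enzyme of fatty acid oxidation, had differences of -1.66, -1.13 and -1.03 and just missed the threshold (adjusted p = 0.055, 0.055 and 0.0558 by limma). Nefl, a neurofilament, had a difference of -1.64 (limma, adjusted p = 0.0706).

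Enzymes that make retinoic acid from retinal, the aldehyde dehydrogenases, had lower values at 24 h without passing. Aldh1a3 was at 7.80 and 7.74 at 24 h with doxycycline and at 8.83 and 9.37 at 12 h with doxycycline (-1.33 ± 0.19, limma, adjusted p = 0.0594), Aldh1a1 had a difference of -1.14 (adjusted p = 0.0706) and Aldh1a2 of -0.60. Without doxycycline the differences of these 3 were 0.07, 0.03 and 0.06. Their signals were then low at both times, from 5.04 to 5.18 for Aldh1a3, 4.57 to 4.81 for Aldh1a1 and 3.93 to 4.18 for Aldh1a2. The lower quartiles of those arrays were 4.54 to 4.69. A fall would be hard to see at such levels, so these differences cannot show whether the change was particular to doxycycline. Aldh1a2 was dim with doxycycline too, at the percentile 19.2. In the retinoic acid list 0 of 11 were called, 4 were lower at an unadjusted p of 0.05, and the median was -0.30. Adh7, an alcohol dehydrogenase that oxidises retinol, had a larger difference with a wide spread, at 4.67 and 5.51 at 24 h and 6.96 and 8.66 at 12 h (-2.72 ± 0.54, limma, adjusted p = 0.195). Tmem255a, at 8.35 and 6.66 at 24 h and 4.17 and 4.37 at 12 h, and Lgr5, an R-spondin receptor, at 5.82 and 6.98 at 24 h and 8.27 and 9.20 at 12 h, had further large differences that did not pass.

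Of the markers of blood lineages, 1 passed, the myeloid gene Clec5a, which was also called without doxycycline. In bulk RNA, fewer cells of a type and less RNA per cell cannot be told apart. Over all probe sets 47% were above 0 and 3.87% were higher at an unadjusted p of 0.05. Of 16 erythroid markers 0 were called, 13 were above 0, and 6 were higher at an unadjusted p of 0.05. The median difference was 0.40. Slc4a1, the anion exchanger of the red cell, was at 11.19 and 10.98 at 24 h with doxycycline and at 10.02 and 9.67 at 12 h with doxycycline (1.24 ± 0.22, limma, adjusted p = 0.124), while the embryonic globins Hbb-y and Hba-x had differences of 0.11 ± 0.17 and -0.15 ± 0.14. Megakaryocyte and platelet genes had a median of 0.69 with 0 calls in 13 (1 higher and 0 lower at an unadjusted p of 0.05). Of the 13 differences, 12 were above 0. In Plek (0.73 ± 0.23), Vwf (1.27 ± 0.59), Treml1 (0.66 ± 0.33) and Gp9 (1.02 ± 0.56) both samples at 24 h lay above both at 12 h. Other members overlapped between the times: Pf4, a platelet chemokine, was at 7.96 and 5.86 at 24 h and 6.57 and 5.70 at 12 h. Of 22 myeloid markers 1 was called, Clec5a, 8 were higher at an unadjusted p of 0.05, and the median was 0.52. Mpo, the neutrophil peroxidase, had a difference of 1.08 ± 0.45, Coro1a, an actin regulator of white cells, of 1.05 ± 0.18, and Csf1r, the macrophage growth factor receptor, of 0.52 ± 0.15, without passing. The precursor transcription factors Runx1, Tal1 and Gata2 had differences of 0.19, -0.23 and -0.68 and did not pass. Of 14 precursor markers 10 were above 0 and 0 were called, with a median of 0.21. Itga2b had a difference of 0.90 ± 0.37 and Kit of 0.37 ± 0.17. Of 23 blood transcription factors 14 were above 0 and 0 were called, with a median of 0.19. At an unadjusted p of 0.05, 5 of these were higher, such as Mecom (0.92 ± 0.27), and 1 was lower, Hhex (-1.03 ± 0.22).

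Cell division and sterol genes had small differences, none past the test. All 20 measured genes of G2 and M phase had differences above 0, against 47% of all probe sets. Their median was 0.40, with 4 of them higher at an unadjusted p of 0.05 and 0 called. Without doxycycline all 20 were above 0 too, with a median of 0.27. Mki67, the proliferation marker Ki-67, was at 9.90 and 9.75 at 24 h with doxycycline and at 9.32 and 8.85 at 12 h with doxycycline. Of 22 genes of S phase 0 passed at either threshold, with a median of 0.17, and 15 genes of ribosome biogenesis and MYC had a median of -0.16 with 0 called and 2 lower at an unadjusted p of 0.05. Cholesterol synthesis genes had a median of 0.46, against -0.02 without doxycycline. With doxycycline 16 of 17 differences were above 0, 6 of them at an unadjusted p of 0.05, and 0 were called. Over all probe sets 3.87% were higher at that unadjusted threshold. Lss, the lanosterol synthase, had a difference of 0.95 ± 0.25, and Dhcr7, which makes cholesterol from its last precursor, of 0.74 ± 0.25.

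**Figure D4:**
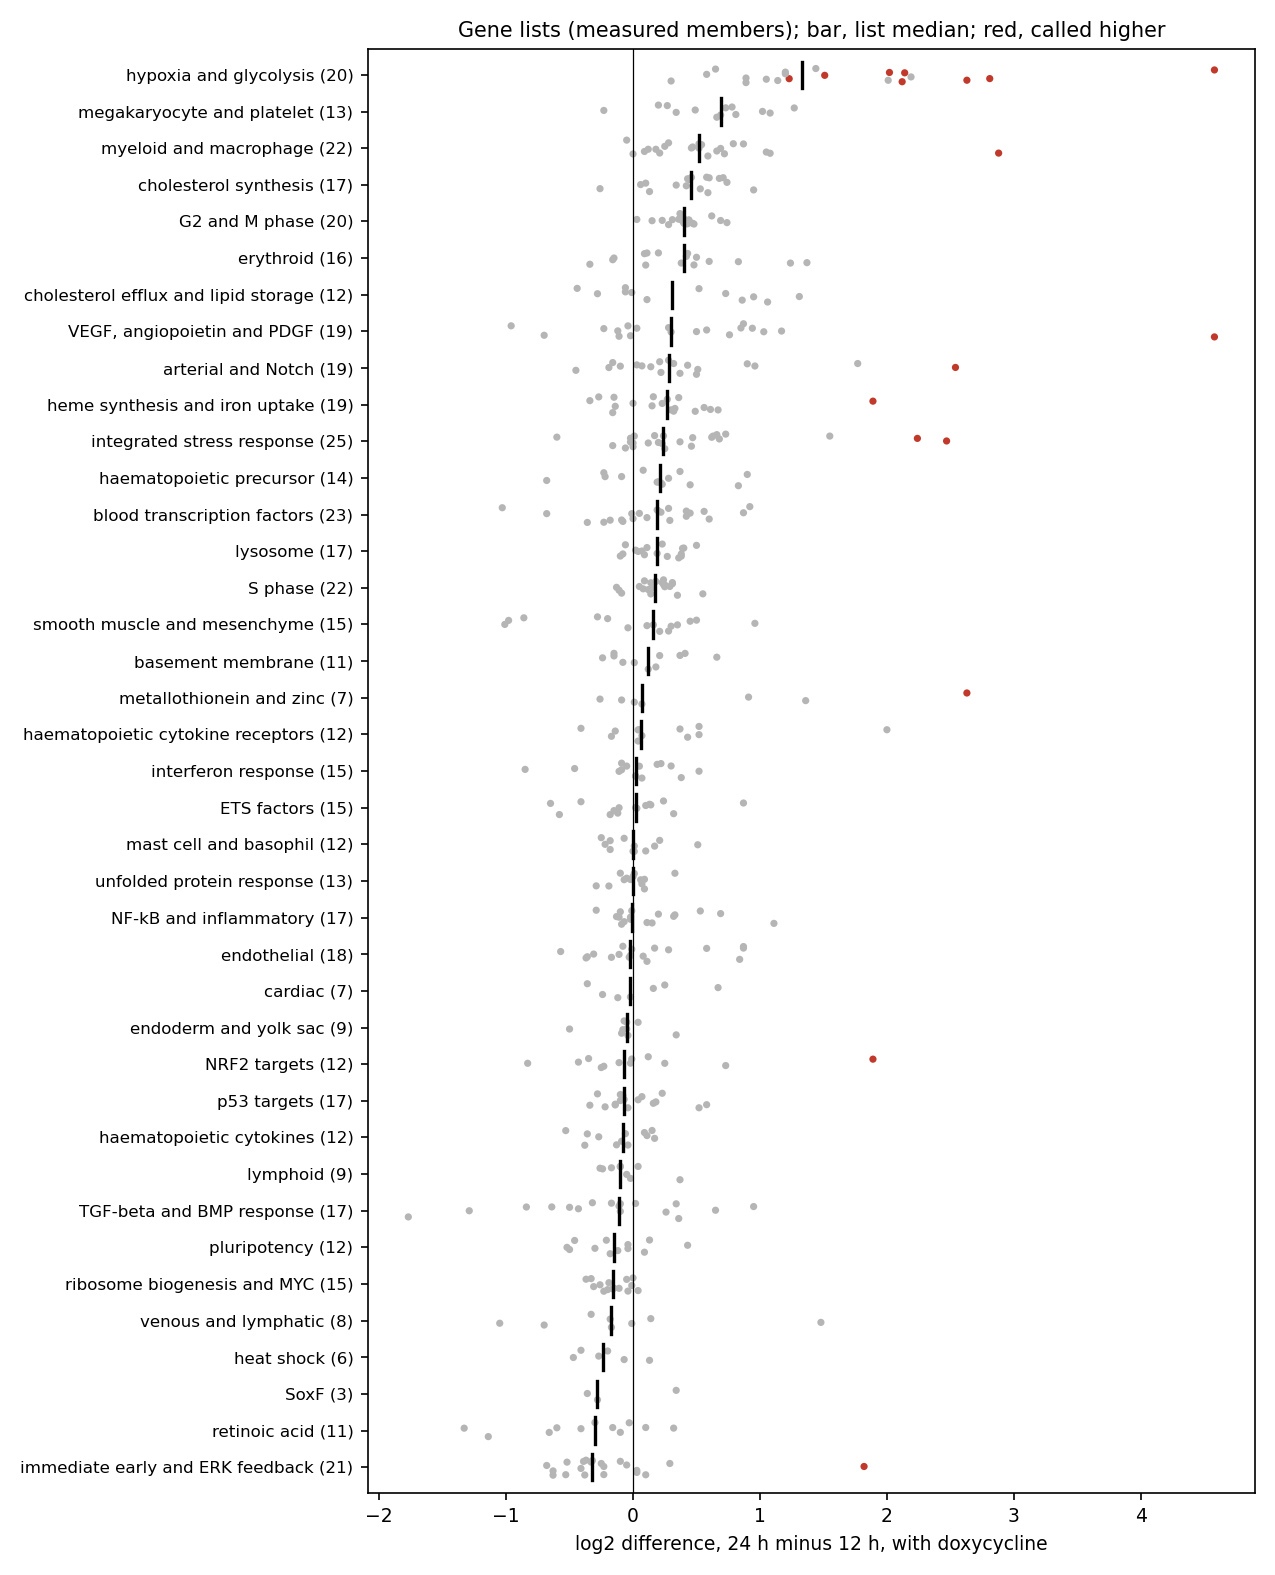
Log2 difference, 24 h minus 12 h with doxycycline (horizontal axis), of each measured member of the gene lists (rows, with the number measured); points are genes, red where called higher, and the black bar is the list's median. The hypoxia and glycolysis list has its median at 1.33 and 8 red points, and the next highest median is 0.69.

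Time in culture without doxycycline was compared the same way, to show where the induced cells differ. By limma, 24 of 16348 probe sets passed without doxycycline (0.147%), 23 higher and 1 lower (0.00612%), and 1220 had an unadjusted p under 0.05 (7.46%, with 4.53% higher). Of these calls, 13 probe sets were called in both conditions, in the same direction, which is 43.3% of the 30 calls with doxycycline and 54.2% of the 24 without. Both comparisons took the same estimate of spread for each probe set from all 8 arrays. A probe set with little spread is thus favoured in both, and the 2 sets of calls are not independent. The count without doxycycline was 0 to 3 when 1 of these samples was left out: the first or second at 12 h without it, the first at 24 h without it, and the first or second at 24 h with it. Of the 26 that rose with doxycycline, 25 had a difference above 0 without it, and the exception was Fgfr3. All 4 that fell with doxycycline had a difference below 0 without it, but that of Glul was only -0.11 ± 0.15, at 9.27 and 9.20 at 24 h without doxycycline and at 9.39 and 9.30 at 12 h without it. Its contrast between the conditions, -1.07 ± 0.21, did not pass. Among the genes called in both were Edn1, which changed by -1.54 without doxycycline, Egln3 (1.37), Egln1 (1.83), Bnip3 (2.94), Mt2 (4.10), Pygl (1.95), Hmox1 (1.90) and Vldlr (1.76). Of the 30 calls, 23 were larger in size with doxycycline than without, among them Adm at 4.58 with and 2.54 without, and the calls were chosen for their size with doxycycline. Across all probe sets the differences in the 2 conditions correlated with r = 0.442, a description over probe sets that are not independent. In the test of the difference between the changes by limma, 0 probe sets passed, and 505 (3.09%) had an unadjusted p under 0.05, 301 of them below 0 (1.84%). For the hypoxia and glycolysis list the median difference was 1.33 with doxycycline and 1.34 without, and 19 of 20 members were higher without doxycycline at an unadjusted p of 0.05. Myeloid markers had medians of 0.52 with doxycycline and 1.10 without, and Cd14, the lipopolysaccharide receptor, was at 4.85 and 4.95 at 24 h with doxycycline and at 4.93 and 4.64 at 12 h with doxycycline, against 6.23 and 6.04 at 24 h without it and 4.44 and 4.52 at 12 h without it. Its contrast between the conditions, -1.54, did not pass either. The second sample at 24 h without doxycycline had a lower upper quartile, 8.19, than the other 7 arrays (8.38 to 8.57), and 14 probe sets passed for the cells with doxycycline when it was left out.

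**Figure D5:**
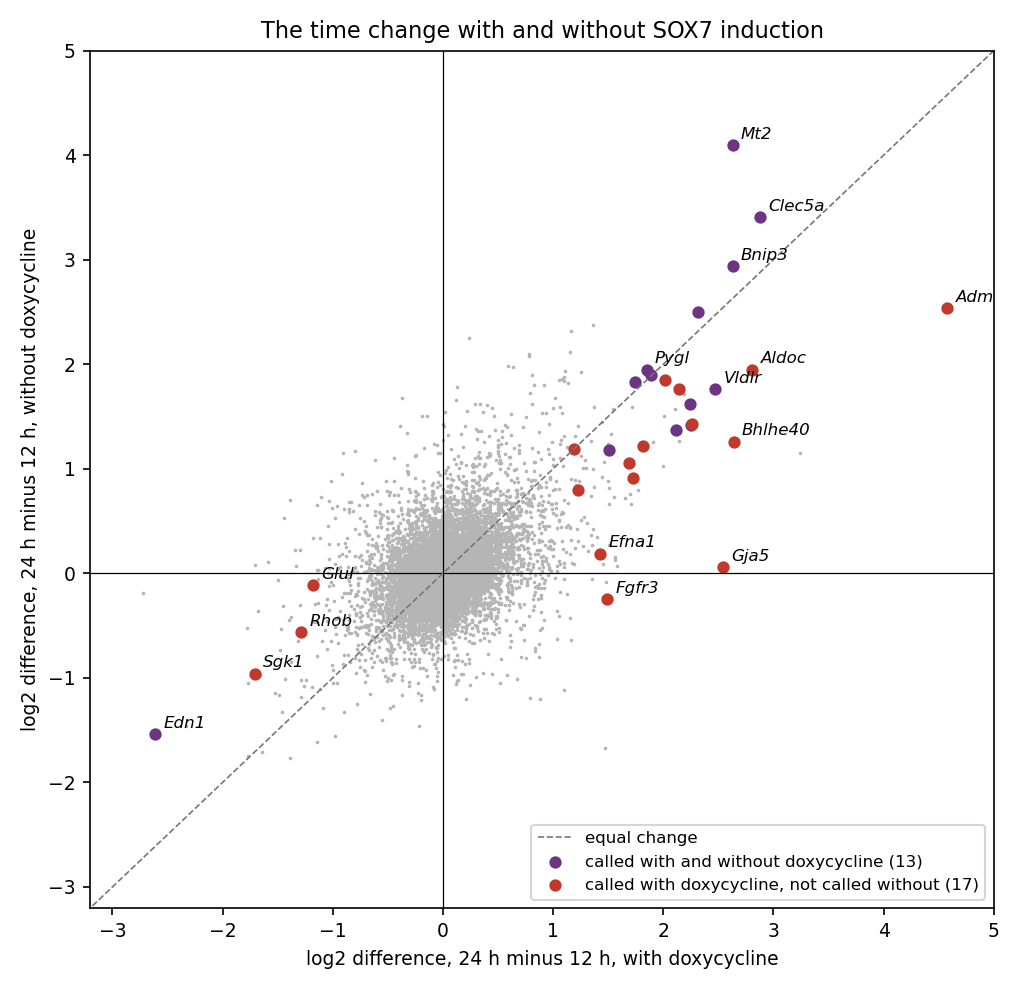
Log2 difference, 24 h minus 12 h, with doxycycline (horizontal axis) and without it (vertical axis) for all probe sets (grey), with the 13 called in both conditions in purple, the other called ones in red, and a dashed line of equal change. Most coloured points lie on the same side of 0 on both axes, and Gja5, Fgfr3 and Efna1 lie near 0 without doxycycline.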

How the data were processed

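The deposited values are log2 signals, 1 array per sample, which the authors made with RMA in Affymetrix Power Tools, per the submitters' processing notes. RMA subtracts background, brings the arrays to a common distribution and combines probes into probe sets, and it can narrow differences of very dim or very bright probe sets. Versions, genome build and probe set filters are not given in the sources used here. Array medians lay between 6.40 and 6.61, and correlations between arrays between 0.973 and 0.991. Precision is limited by there being 2 arrays in each group.

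Of 16348 probe sets, 14785 carried 1 gene symbol in the platform annotation, 950 several and 613 none; 14740 were matched to RefSeq through their gene number, and genes were named only from probe sets with 1 symbol unless stated. Samples were grouped by title. A model with 1 mean per group was fitted to all 8 arrays in limma 3.58.1 (R 4.3.3), leaving 4 residual degrees of freedom, and contrasts were moderated with eBayes and adjusted by Benjamini-Hochberg over all probe sets, with calls at 0.05. The steps were tested on simulated data. Alternatives covered normalization, centring, the variance model, dim probe sets, array weights, a replicate block, the arrays fitted and leaving out each sample.

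The members and gene lists were chosen with earlier results of these data known, and 6 lists (glycogen, HIF regulators, endothelin, MHC class II, FGF receptors and ephrin ligands) were made after the values were seen. Genes were named by rule: Sox7, up to 15 called rises and falls with the largest differences (falls filled to 10 by p), the 3 smallest p-values of the contrast between conditions, and up to 4 members of each list. Not every gene that the rule gave is described. Olfr969, a dim gene at the percentile 2.21 given by the contrast between conditions, and some list members were left out. Further genes were named after their values were seen, to show the other members of a pathway. Same-numbered samples of the compared times deviated together (r = 0.342), but the labels do not say that a number marks a shared culture, so numbers were not taken as pairs.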

Additional observations from a re-analysis of the deposited data

How the results depend on the processing

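The number called moved with much of the processing. With doxycycline it was 31 with arrays centred on their medians, 27 of them among those reported. A robust variance model gave 30, all among those reported, and 1 probe set per gene gave 43. The comparison 24 h against 12 h with doxycycline gave 30 calls as reported, 49 with quantile normalization repeated, 62 with an intensity trend in the variance, 58 without the dimmest 33.3% of probe sets, 88 with array weights and 0 with only the 4 arrays compared. For 24 h against 12 h without doxycycline the same settings gave 61, 44, 51, 0 and 1 calls, against 24 as reported. With the replicate number as a block, 123 probe sets were called with doxycycline and 130 without; the numbers are not known to pair the samples. Leaving out each sample in turn gave 0 to 29 calls with doxycycline and 0 to 36 without. The contrast between the conditions gave 0 calls under every setting run. The cause of these shifts was not tested, apart from the settings that test fewer probe sets or samples by construction. All 30 reported calls were among those made with the intensity trend, the array weights and the block, and 28 with quantile normalization. With 2 samples in each group, genes whose samples scatter within a time pass only with a large difference, and dim genes carry less signal over background.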

Other observations

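Some genes outside those described above had large differences with doxycycline. H2-Ab1, a chain of MHC class II, was at 7.30 and 7.38 at 24 h with doxycycline and at 5.67 and 5.58 at 12 h with doxycycline (1.72 ± 0.26, limma, adjusted p = 0.0739). Il10ra, the receptor for interleukin 10, was at 7.47 and 6.97 at 24 h and at 5.37 and 5.08 at 12 h (2.00 ± 0.29, limma, adjusted p = 0.0625). Scd1, the fatty acid desaturase, was at 9.53 and 9.36 at 24 h and at 8.18 and 8.09 at 12 h (1.31 ± 0.33, limma, adjusted p = 0.353). Ccn1, a matricellular protein, was at 6.90 and 7.17 at 24 h and at 8.20 and 9.42 at 12 h (-1.77 ± 0.46, limma, adjusted p = 0.382). None of these passed, nor did any of the 4 MHC class II genes measured. Immediate early and ERK feedback genes had a median difference of -0.32 over 21 genes, with 1 called, Ier3, which rose, and 4 lower at an unadjusted p of 0.05, among them Jun, the AP-1 subunit, at 8.59 and 8.81 at 24 h and 9.13 and 9.53 at 12 h.

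Some known HIF targets that are not in the hypoxia list also had values above those at 12 h without passing. Ak4, an adenylate kinase of mitochondria, was at 8.56 and 8.33 at 24 h with doxycycline and at 6.46 and 6.13 at 12 h with doxycycline, and Stc1, the hormone stanniocalcin, was at 6.76 and 6.13 at 24 h and 4.23 and 4.39 at 12 h.

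The other lists gave few calls with doxycycline. The list of heme synthesis and iron uptake had a median difference of 0.27 over 19 genes, with Hmox1 its 1 call, and that of metallothioneins and zinc 0.07 over 7 genes, with Mt2 its 1 call. Lists of precursor markers, venous and lymphatic genes, basement membrane, ETS factors, blood transcription factors, lipid storage, heat shock, p53 targets, TGF-beta and BMP response, interferon response, NF-kB, lysosome, and haematopoietic cytokines and their receptors gave 0 calls by limma, with medians from -0.24 (heat shock) to 0.31 (cholesterol efflux and lipid storage). At an unadjusted p of 0.05, TGF-beta and BMP response genes counted 2 higher and 4 lower of 17. Lipid genes counted 6 higher and 1 lower of 12, and lysosomal genes 5 higher and 0 lower of 17. Over all probe sets 3.87% were higher and 2.95% lower at that threshold.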
